A study of Oryza sativa with 6 samples.

Results

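The genes described here belong to the cuticle pathway of the rice anther, and 4 genes were chosen by identifier out of 94013 rows of the expression table. They were WDA1 (OS10G0471100), CER1 (OS02G0621300), GPAT3 (OS11G0679700) and NP1 (OS10G0524500). Of the 94013 rows, 37830 carried an OS identifier, and all 4 chosen identifiers had a row. The symbols were given beside the identifiers and could not be checked against an annotation, because the reference table used here lists none of these identifiers. The symbols and roles of all other genes named below come from general knowledge and were likewise not checked.

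The anther is sealed by a cuticle, a layer of cutin polyester filled and coated with waxes. Cutin is built from hydroxylated fatty acids joined to glycerol, and waxes include alkanes made from very-long-chain fatty acids. In grasses the tapetum, the innermost wall layer of the anther, supplies lipid precursors for the pollen wall and the cuticle, and the anther epidermis carries the finished cuticle on its surface. Rice mutants in these genes have been described with defects of the anther cuticle or the pollen wall and with male sterility.

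Anthers of rice (Oryza sativa) between the tetrad and the early microspore stage were compared in 6 RNA-seq libraries. The first group, whose genotype the labels give as dmd1 wild-type, and the dmd1 mutant each had 3 libraries that the design calls biological replicates. The plants of both groups were 3 months old, and the labels name no cultivar, allele or treatment. DMD1 expression was not analysed here.

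Values are FPKM (fragments scaled by library size and transcript length), so levels of different genes can be set side by side. FPKM totals ran from 808227 to 1287424 per library, and a row was tested when it reached 1 FPKM in at least 3 libraries. Wild-type library 2 and dmd1 library 1 stood apart from the other libraries on the second principal component (26.7% of the variance over tested rows), while the first (53.9%) separated the genotypes. The labels tie this split to no batch. All 7 listed regulators of the tapetum were detected in every library, from 14.6 FPKM upward. WX, the granule-bound starch synthase gene of starch-filled pollen, was at 0.13 FPKM or less.

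The level of the 4 genes followed the same order in each of the 6 libraries, with NP1 highest, then CER1, WDA1 and GPAT3. NP1 was among the most abundant transcripts, above 99.0% to 99.8% of tested rows depending on the library. CER1 stood above 92.2% to 97.1% of tested rows and WDA1 above 86.5% to 95.7%. GPAT3 stood near the bottom, above 1.04% to 8.76% of them.

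Of the 4 genes 3 were tested, and 0 of these 3 were called changed in dmd1 by limma. A call needed an adjusted p under 0.05 (limma, Benjamini-Hochberg over 25474 rows) and a log2 change of at least 1 on the log2(FPKM + 1) scale, which understates changes of low rows. By this rule 6.71% of all tested rows were called, 3.54% as lower and 3.16% as higher in dmd1. The tested rows include rows without an OS identifier. With the 22532 tested OS rows alone, 850 were called lower and 628 higher. At an unadjusted p under 0.05, 2 of the 3 (WDA1 and NP1) were lower, as were 10.9% of all tested rows. The median log2 change of the 3 was -0.77 against 0.12 over all tested rows. In anthers, fewer cells of a type and less RNA per cell cannot be told apart.

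**Figure D1:**
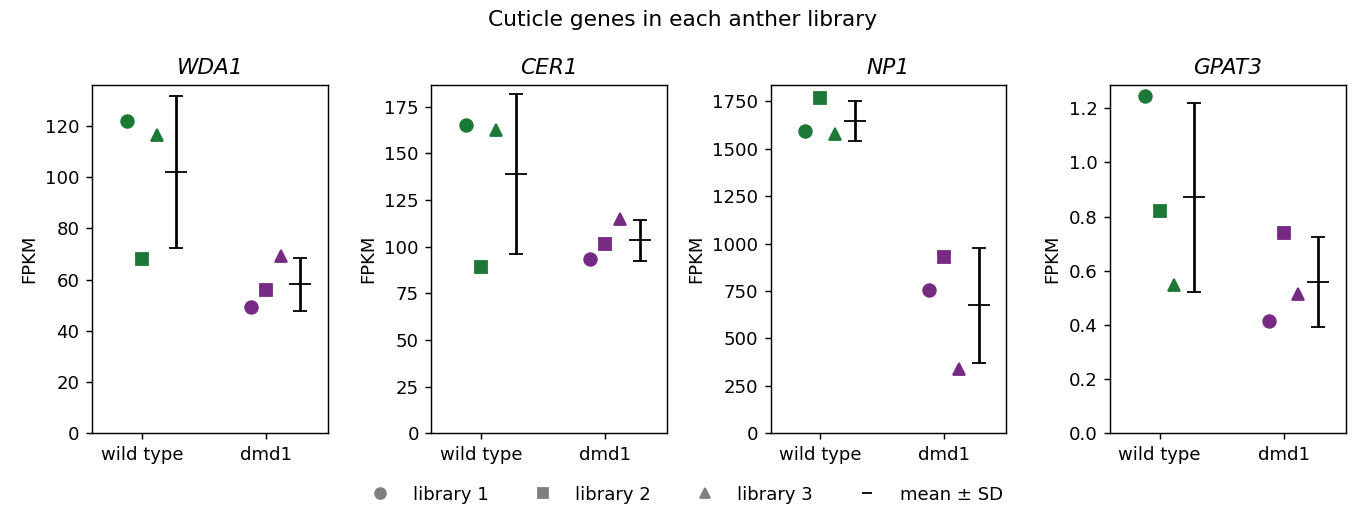
FPKM (linear axis from 0, a separate scale for each gene) of WDA1, CER1, NP1 and GPAT3 in the 3 wild-type and 3 dmd1 libraries; each symbol is a library and the bar is the mean with SD. The genotypes are separate for NP1, while wild-type library 2 lies within or below the dmd1 values for WDA1 and CER1.

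WDA1 is a CER1-like gene that is required in rice for the wax of the anther epidermis. Its level was 122, 68.1 and 116 FPKM in wild-type libraries 1, 2 and 3, and 49.1, 55.9 and 69.4 FPKM in the dmd1 libraries of the same numbers. Wild-type library 2 lay just below the highest dmd1 library, so the genotypes overlapped by this library, while the other wild-type libraries were well above all of dmd1. The means were 102 ± 29.7 and 58.1 ± 10.3 FPKM (SD, n = 3). The log2 change was -0.77 ± 0.26 (SE), with a 95% interval of -1.40 to -0.15, which missed the threshold (limma adjusted p = 0.101). Without wild-type library 2, the lowest of wild type, the log2 change was -1.04 and was called (limma adjusted p = 0.0252). Leaving out the lowest wild-type library necessarily enlarges the fall. With any other single library left out WDA1 was not called (limma adjusted p from 0.118 to 0.253). Without both wild-type library 2 and dmd1 library 1 the log2 change was -0.93, with limma adjusted p = 0.0342, short of the fold limit.

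CER1 takes part in forming very-long-chain alkanes. Wild type had 165, 89.2 and 162 FPKM of CER1, and dmd1 had 93.6, 101 and 115 FPKM. Wild-type library 2 was the lowest of all 6 libraries, and the other wild-type libraries were the highest. The means were 139 ± 43.1 and 103 ± 10.8 FPKM (SD, n = 3). The log2 change was -0.38 ± 0.26 (SE), with a 95% interval of -1.003 to 0.25, which holds both no change and a fall to about the fold limit (limma adjusted p = 0.377). Without wild-type library 2 the log2 change was -0.66 (limma adjusted p = 0.0388), and without dmd1 library 1 as well it was -0.60 (limma adjusted p = 0.0558). With any other single library left out it ran from -0.45 to -0.22 (limma adjusted p from 0.383 to 0.673). None of these reached the fold limit.

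NP1 encodes an oxidoreductase of the glucose-methanol-choline family, a relative of HOTHEAD of Arabidopsis, and is required in rice for the anther cuticle and the pollen exine. Wild type had 1593, 1764 and 1577 FPKM of NP1, and dmd1 had 756, 930 and 340 FPKM. The genotypes did not overlap, and dmd1 library 3 was far below the other dmd1 libraries. Of all tested rows, 13.1% were lower in every dmd1 library than in every wild-type library. The means were 1645 ± 104 and 675 ± 304 FPKM (SD, n = 3), so the spread within dmd1 was the wider one. The log2 change was -1.40 ± 0.38 (SE), with a 95% interval of -2.31 to -0.49, and only 3.06% of tested rows had a lower one.

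The NP1 difference narrowly missed the threshold (limma adjusted p = 0.0586) and its call depended on the scaling. It was called when libraries were scaled to equal totals (log2 change -1.20, limma adjusted p = 0.0325) and with median-of-ratios scaling (-1.52, 0.0297), but not with quantile normalization (-1.06, 0.0962). Without dmd1 library 3 the log2 change was -0.97 (limma adjusted p = 0.0507).

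GPAT3 encodes a glycerol-3-phosphate acyltransferase, a type of enzyme that joins fatty acids to glycerol. Wild type had 1.24, 0.819 and 0.549 FPKM of GPAT3, and dmd1 had 0.416, 0.74 and 0.514 FPKM. Wild-type library 1 was the only one above 1 FPKM, and the genotypes overlapped. GPAT3 therefore failed the filter and entered no test in the fit described above. Without the filter its log2 change was -0.25 ± 0.18 (SE, limma adjusted p = 0.459), in a fit that called 3.68% of 37255 rows.

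The genes were then set against each other within each library, since such a ratio does not depend on library scaling. All 6 pairs were compared by an exact two-sided permutation test, which with 3 against 3 libraries cannot give a p below 0.1. CER1 was 1.35, 1.31 and 1.39 times as abundant as WDA1 in wild-type libraries 1, 2 and 3 and 1.90, 1.81 and 1.66 times as abundant in dmd1. The genotypes did not overlap, and in this ratio wild-type library 2 lay close to the other wild-type libraries. The log2 ratio was 0.44 ± 0.04 in wild type and 0.84 ± 0.10 in dmd1 (SD, n = 3), a difference of 0.40 (exact permutation p = 0.1, adjusted over the 6 pairs 0.3). With any library left out this difference lay between 0.36 and 0.46.

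NP1 was 9.65, 19.8 and 9.71 times as abundant as CER1 in wild type and 8.08, 9.18 and 2.96 times as abundant in dmd1. The genotypes again did not overlap, but wild-type libraries 1 and 3 lay close to dmd1 library 2. The log2 ratio was lower in dmd1 by a difference of -1.03 (exact permutation p = 0.1, adjusted over the 6 pairs 0.3), and this difference ran from -1.33 to -0.51 with a library left out. Leaving out wild-type library 2 gave -0.68, and leaving out dmd1 library 3 gave -0.51. The NP1 to WDA1 ratio overlapped between the genotypes, with a log2 difference of -0.62 (exact permutation p = 0.6). That difference ran from -0.94 without dmd1 library 2 to -0.05 without dmd1 library 3, and was -0.30 without wild-type library 2. The 3 ratios to GPAT3 overlapped as well, with log2 differences between -0.80 and 0.23 when GPAT3 was the denominator.

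**Figure D2:**
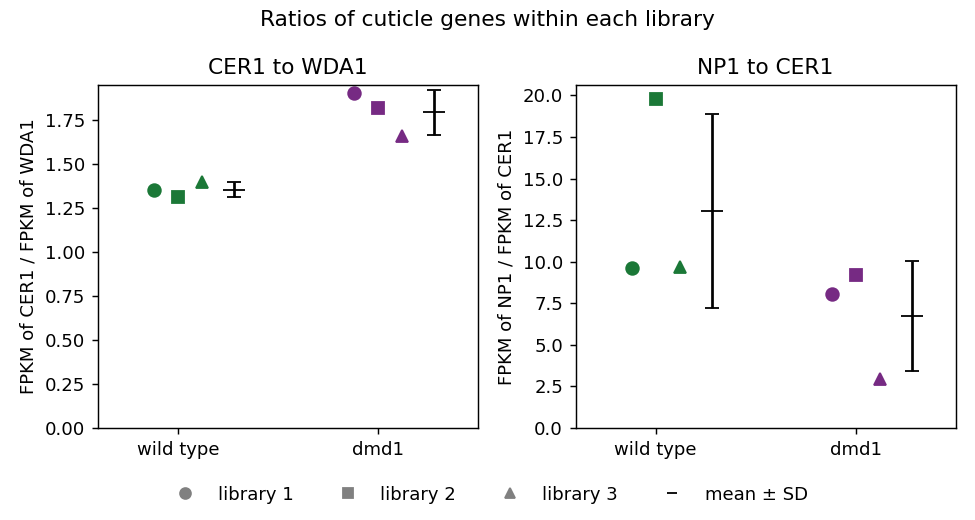
Ratio of CER1 to WDA1 (left) and of NP1 to CER1 (right) in FPKM (linear axes from 0) in each library, with mean and SD. The CER1 to WDA1 ratio is 1.31 to 1.39 in wild type and 1.66 to 1.90 in dmd1; the NP1 to CER1 ratio is widest apart in wild-type library 2 (19.8) and dmd1 library 3 (2.96).

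WDA1 and CER1 belong to the GL1 family, named for a maize gene of leaf wax, and 4 other rice members were listed. Over these 6 genes the summed level was 897, 549 and 785 FPKM in wild type and 569, 609 and 709 FPKM in dmd1, so the genotypes overlapped. WDA1 held 13.6%, 12.4% and 14.8% of this sum in wild type and 8.63%, 9.17% and 9.79% in dmd1. CER1 held 18.4%, 16.3% and 20.7% in wild type and 16.4%, 16.6% and 16.2% in dmd1. The share of WDA1 was lower in every dmd1 library than in every wild-type library, while the shares of CER1 overlapped.

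GL1-1 (OS09G0426800) was the only listed GL1 gene called higher in dmd1. Its level was 16.3, 14.0 and 17.7 FPKM in the wild-type libraries and 52.9, 71.2 and 65.8 FPKM in the dmd1 libraries. This log2 change of 1.92 ± 0.16 (SE) had a limma adjusted p = 0.00350. GL1-3 (OS06G0653000), the most abundant of the 6, averaged 331 ± 77.2 and 269 ± 41.8 FPKM and was not called (limma adjusted p = 0.436). GL1-2 (OS02G0178800) averaged 99.5 ± 19.6 and 63.3 ± 11.0 FPKM and was not called (limma adjusted p = 0.0804). GL1-6 (OS02G0814200) averaged 56.2 ± 11.9 and 71.7 ± 11.7 FPKM and was not called (limma adjusted p = 0.283). GL1-6 was named after its values were seen.

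The wider wax and cutin list held 14 genes, the 4 other GL1 genes included, of which 13 were tested. This list was chosen with earlier results of these data known, so its counts are only a description. It gave 2 rises, 2 falls and 9 genes not called, with a median log2 change of -0.22. Of all tested rows, 3.16% were called higher and 3.54% lower. At an unadjusted p under 0.05 (limma), 3 of the 13 were higher and 4 lower, against 20.4% and 10.9% of all tested rows. The other rise was WSL4 (OS03G0220100), a ketoacyl-CoA synthase gene that lengthens fatty acids for leaf wax. Wild type had 34.1, 32.6 and 33.8 FPKM of WSL4, and dmd1 had 91.7, 88.6 and 104 FPKM (log2 change 1.47 ± 0.12, limma adjusted p = 0.00343). Another ketoacyl-CoA synthase gene, ONI1 (OS03G0181500), averaged 521 ± 27.0 and 558 ± 45.3 FPKM and was not called (limma adjusted p = 0.691). The ABC transporter gene ABCG31 (OS01G0177900) averaged 137 ± 44.2 and 113 ± 14.7 FPKM and was not called (limma adjusted p = 0.624). WSL1 and ONI3 were chosen with their values in view. The log2 change of WSL1 was 0.56 ± 0.14 (limma adjusted p = 0.0517) and that of ONI3 was 0.42 ± 0.26 (0.329), and neither was called. The untested gene was DWA1, listed at 0 in every wild-type library and at 2.44, 0 and 0.337 FPKM in dmd1.

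Both falls in this list were in genes with high levels in wild type. WSL3 (OS04G0483500), a ketoacyl-CoA reductase gene of the elongation cycle, fell from 2102, 2708 and 1441 FPKM in wild type to 361, 202 and 156 FPKM in dmd1 (log2 change -3.16 ± 0.37, limma adjusted p = 0.00704). LGF1 (OS11G0499600), a hydroxysteroid dehydrogenase-like gene needed for the leaf gas film, fell from 1793, 2934 and 1534 FPKM to 307, 168 and 25.6 FPKM (log2 change -4.17 ± 0.87, limma adjusted p = 0.0307). The LGF1 call did not survive leaving out wild-type library 1 (limma adjusted p = 0.0961), 2 (0.0691) or 3 (0.0803) or dmd1 library 2 (0.0824), nor dropping the filter on low rows (0.0501).

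The AP2-type regulators WR1 (OS02G0202000) and WR2 (OS06G0604000), which activate wax and cutin genes in rice, were not called. The wild-type levels of WR1 were 22.1, 7.47 and 14.5 FPKM, and those in dmd1 were 2.57, 4.79 and 5.13 FPKM, without overlap (log2 change -1.53 ± 0.40, limma adjusted p = 0.0543). It was called without wild-type library 2 (limma adjusted p = 0.0244) and without both libraries that stood apart (0.0251). Calls also came with OS rows only (limma adjusted p = 0.0498), quantile normalization (0.0485) and library weights (0.00227). No other alternative run called WR1. With any other single library left out its limma adjusted p ran from 0.0877 to 0.143, and with equal totals it was 0.0888. WR2 averaged 86.8 ± 29.0 and 51.7 ± 10.8 FPKM (log2 change -0.70 ± 0.30, limma adjusted p = 0.177), and was called without wild-type library 2 (log2 change -1.01, limma adjusted p = 0.0395). WR1 was named after its values were seen, and WR2 as the listed gene most like WDA1.

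The anther lipid list held 7 genes for hydroxylation, reduction, transfer and export of tapetal lipids. Like the wax and cutin list, it was chosen with earlier results of these data known, so its counts are only a description. It gave 5 falls and no rise, where 3.54% of all tested rows were called lower and 3.16% higher. Its median log2 change was -2.91, and the log2 changes of NP1, WDA1 and CER1 were nearer to 0 than this median. At an unadjusted p under 0.05, 6 of the 7 were lower and 0 higher, against 10.9% and 20.4% of all tested rows. Its falls were in CYP704B2, CYP703A3, DPW, ABCG15 and C4, whose dmd1 means were 0.140, 0.228, 0.127, 0.189 and 0.0960 times those of wild type. The same quotient was 0.411 for NP1, 0.569 for WDA1 and 0.744 for CER1. ABCG26 was not called, with a quotient of 1.07. C6 was not called either (limma adjusted p = 0.103), though its quotient was 0.0694, the genotypes did not overlap and no tested row had a lower log2 change. C6 was called without dmd1 library 3 (limma adjusted p = 0.044). The difference between this list and the 3 tested cuticle genes was not tested. With a library left out the number of falls ran from 1 to 5. It was 1, 3 and 2 when wild-type library 1, 2 or 3 was left out, and 1 when dmd1 library 2 was. CYP704B2 kept its call in each of these fits.

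**Figure D3:**
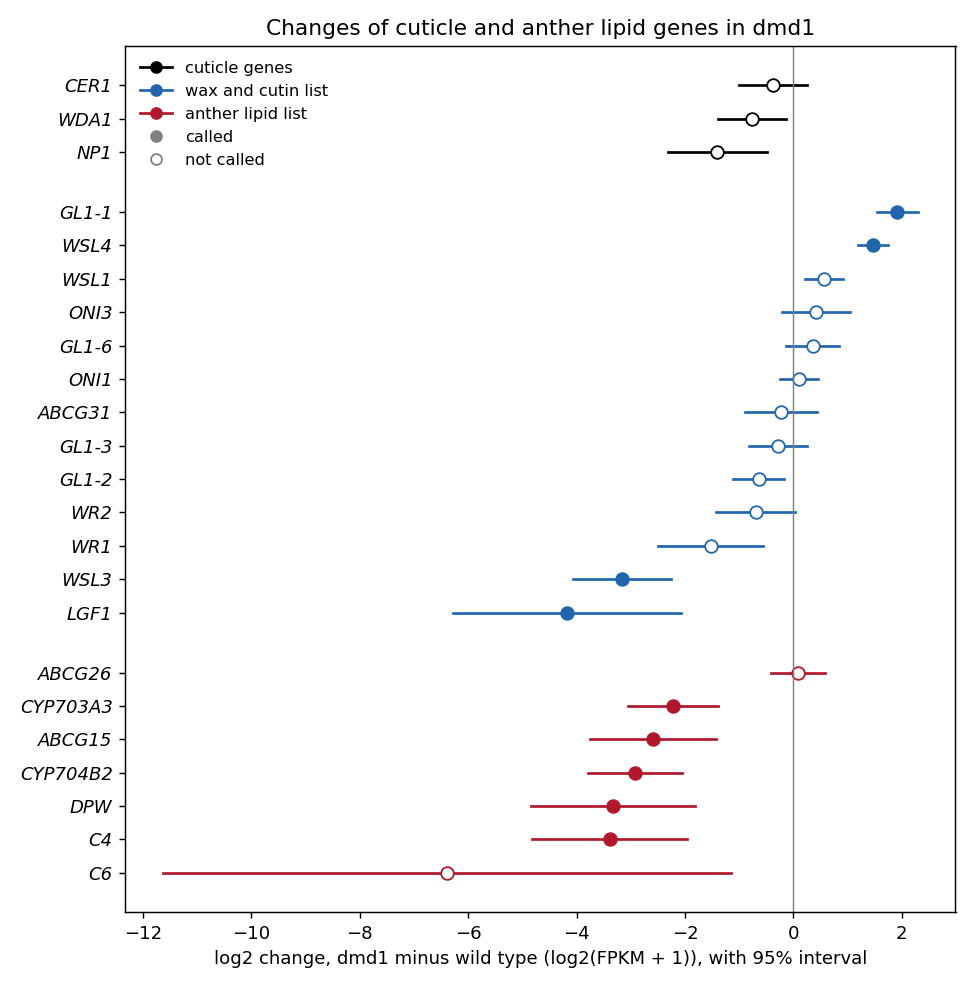
Log2 change in dmd1 against wild type (horizontal axis, log2(FPKM + 1) scale) with 95% intervals from limma for the 3 tested cuticle genes, the wax and cutin list and the anther lipid list; filled points were called. NP1 (-1.40) lies nearer to 0 than the P450 genes CYP703A3 (-2.22) and CYP704B2 (-2.91). It lies within the range of the wax and cutin list, which runs from LGF1 (-4.17) to GL1-1 (1.92).

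The libraries within a genotype separated NP1 from WDA1 and CER1. In wild-type library 2 the level of WDA1 was 0.571 times, and that of CER1 0.545 times, the mean of wild-type libraries 1 and 3. For NP1 this quotient was 1.11, the same as the median of all tested rows (1.11). In dmd1 library 3 the level of NP1 was 0.403 times the mean of dmd1 libraries 1 and 2, against a median of 0.882 over all tested rows. The values there were 1.32 for WDA1 and 1.18 for CER1, so WDA1 and CER1 were highest among the dmd1 libraries where NP1 was lowest.

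The other listed genes were mixed in these respects. Of the 13 tested genes of the wax and cutin list, 11 were lower in wild-type library 2 than in the other wild-type libraries, as were 30.7% of all tested rows. The exceptions were WSL3 and LGF1, the genes that fell. In dmd1 library 3, however, 5 of the 13 were highest among the dmd1 libraries and 3 were lowest. Over all tested rows, 24.4% were highest there, as were WDA1 and CER1, and 53.2% were lowest. Of the 7 genes of the anther lipid list, 6 were lowest in dmd1 library 3 among the dmd1 libraries, as were 53.2% of all tested rows, and the exception was ABCG26. Unlike NP1, 3 of the 7 (CYP704B2, CYP703A3 and ABCG26) were lowest in wild-type library 2 within wild type.

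Markers of cell types differed along the same libraries. The summed level of 9 tapetal marker genes was 16651, 21125 and 17594 FPKM in wild-type libraries 1, 2 and 3 and 5163, 3287 and 1993 FPKM in dmd1. It was lowest in dmd1 library 3, as was NP1. This sum was mostly C6 and CYP703A3 of the anther lipid list. The other 7, the listed regulators, summed to 2073, 2234 and 1628 FPKM in wild type and 1709, 1576 and 1368 FPKM in dmd1, and the median log2 change of the 9 was -0.31. The summed level of 3 green tissue markers was 269, 141 and 254 FPKM in wild type and 71.8, 64.6 and 106 FPKM in dmd1. It was lowest in wild-type library 2 within wild type and highest in dmd1 library 3 within dmd1, as were WDA1 and CER1. Of these 3, CAB2R was called lower in dmd1 (log2 change -1.66 ± 0.31, limma adjusted p = 0.0223), and RBCS was lowest, at 3.76 FPKM, in dmd1 library 3. The 4 meiocyte markers summed to 41.5, 54.4 and 40.6 FPKM in wild type and 51.5, 46.6 and 48.0 FPKM in dmd1. PAIR2 made up most of that sum, and none of the 3 tested meiocyte markers was called. REC8 averaged 3.64 ± 0.13 and 7.47 ± 0.76 FPKM, short of the fold limit (log2 change 0.87, limma adjusted p = 0.0147). MEL1 averaged 4.72 ± 1.28 and 3.40 ± 0.495 FPKM (limma adjusted p = 0.28). Both were without overlap between the genotypes, but MEL1 only barely, at 3.884 FPKM in wild-type library 3 and 3.88 FPKM in dmd1 library 2. Of the 25474 tested rows, 6442 were likewise higher, and 3348 lower, in every dmd1 library than in every wild-type library. None of the tapetal, green tissue and meiocyte markers was at 0 in all libraries, and of the 9 tapetal markers 2 were called lower (EAT1 and CYP703A3) and 1 higher (TIP2). The part of these markers in the results for WDA1, CER1 and NP1 was not tested.

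**Figure D4:**
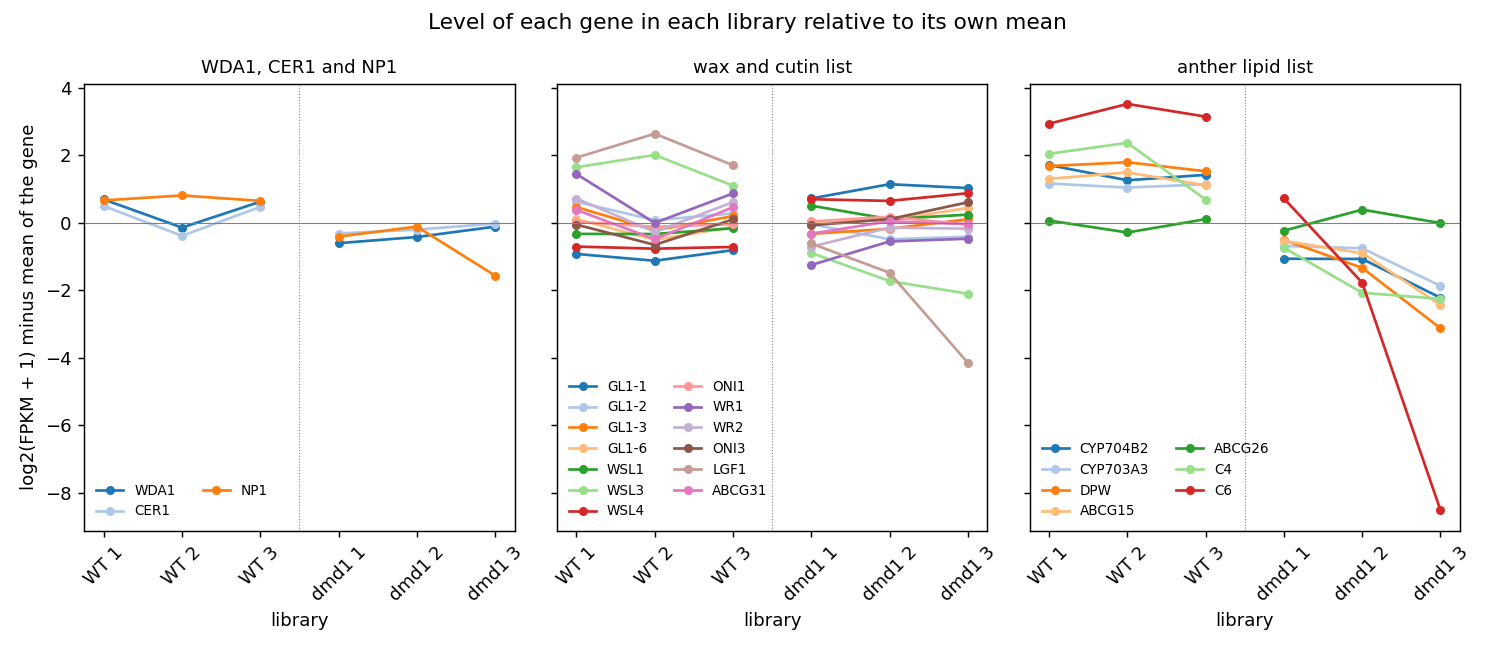
Level of each tested gene in each library (vertical axis, log2(FPKM + 1) minus the mean of the gene over the 6 libraries) for WDA1, CER1 and NP1, for the wax and cutin list and for the anther lipid list; lines join the libraries of a genotype to trace a gene and imply no order. WDA1 and CER1 dip in wild-type library 2 (0.571 and 0.545 times the mean of the other wild-type libraries), while NP1 dips in dmd1 library 3 (0.403 times the mean of the other dmd1 libraries).

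The genes most like each of the 4 were taken as those with the smallest root mean square difference of log2(FPKM + 1) over the 6 libraries, after each gene was centred on its own mean. This is a description over libraries that share depth and composition. The profiles were not scaled, so a larger or smaller change also counts as a difference. Among listed genes WDA1 was closest to WR2 (0.135 log2 units) and then to CER1 (0.208), and 16 of 15698 other OS rows lay closer to WDA1 than WR2 did. The closest of those rows was OS02G0575700 (0.074). It is given without a name, since the reference table held 0 of the 40 listed identifiers. CER1 was closest to ABCG31 (0.119) and GL1-3 (0.141), with 20 other OS rows closer than ABCG31.

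NP1 had no listed gene as near by this measure. Its closest were CYP703A3 (0.434) and PTC1 (0.53), a PHD-finger regulator of tapetal breakdown, and 415 other OS rows were closer than CYP703A3. The closest of these was OS07G0607400 (0.142), also without a name here. Wild type had 377, 436 and 292 FPKM of this transcript, and dmd1 had 161, 189 and 67.4 FPKM. CYP703A3 fell further than NP1 (log2 change -2.22 against -1.40), which adds to its distance, while PTC1 had -1.55. GPAT3 was closest to MYB80 (0.141), but at the low level of GPAT3 the scale compresses its differences, and any gene that varies little lies near it.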

How the data were processed

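The authors deposited 1 table of FPKM values with a column per library, and the submitters' processing notes name fastp, HISAT, RSEM and the build IRGSP-1.0 without versions. The sources used here do not state annotation, strand setting or filters. Fragment depth is unknown, so no counting interval is given. The low values gave no firm relative depth, since at most 15.0% of low rows in any other library shared 1 step against wild-type library 1.

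Rows with at least 1 FPKM in at least 3 libraries (25474) were transformed to log2(FPKM + 1) and fitted with limma 3.58.1 in R 4.3.3 (eBayes with trend and robust), dmd1 minus wild type, with Benjamini-Hochberg adjustment. A call needed an adjusted p under 0.05 and an absolute log2 change of at least 1. The fit was tested on simulated data. Ratios were compared with exact permutation tests (SciPy 1.17.1). No libraries held identical values.

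The 4 genes and the lists were chosen with earlier results of these data known. The rule named called genes of the wax and cutin list and its 4 others with the highest mean, the listed genes most like each of the 4, and all genes of the anther lipid and tapetal regulator lists. Library numbers shared between genotypes were not treated as pairs. Alternatives were other pseudocounts, filters, scalings and spread models, library weights, a replicate block and fits without a library.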

Additional observations from a re-analysis of the deposited data

How the results depend on the processing

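The direction of the changes of WDA1, CER1, NP1 and GPAT3 was the same in every alternative run. Calls were gained for WDA1 with library weights (log2 change -1.01, limma adjusted p = 0.00165), which rest mostly on dmd1 library 2 (weight 9.13), and without wild-type library 2 (-1.04). Calls were gained for NP1 with equal totals (-1.20) and median-of-ratios scaling (-1.52), which shifted the median change of all rows by 0.17 and -0.103. With library weights the NP1 change was smaller, -0.86 (limma adjusted p = 0.0333), and short of the fold limit. GPAT3 changed by -0.53 with a pseudocount of 0.1, and filters and fits that drop its row gave no value. Over fits without a library the log2 change ran from -1.04 to -0.62 for WDA1, -0.66 to -0.22 for CER1, -1.69 to -0.97 for NP1 and -0.38 to -0.11 for GPAT3. Falls in the wax and cutin list numbered 1 without the filter on low values and 1 to 3 without a library. Falls in the anther lipid list ran from 1 to 5 without a library. Over all rows, rises ran from 332 to 923 and falls from 323 to 891 without a library, and rises numbered 522 with a mean of at least 5 FPKM, 1491 with equal totals and 1470 with library weights, against 806. The share of rises among calls was 47.2%, but 62.9% when totals were made equal and 36.1% under median-of-ratios scaling.

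Signs turned for listed genes near 0. With median-of-ratios scaling they were ONI1 (-0.024), ABCG26 (-0.033) and UDT1 (-0.039). They also turned for TDR (0.13, 0.38 and 0.0029) and MYB80 (0.13, 0.012 and 0.12) under equal totals, quantiles and library weights in turn. Without a library, ABCG26 ran from -0.082 to 0.23, UDT1 from -0.023 to 0.14, TDR from -0.21 to 0.035 and MYB80 from -0.19 to 0.0074. The cause was not tested. Same-numbered libraries had correlations of deviations of -0.346, -0.0123 and 0.346, and differently numbered libraries had values from -0.479 to 0.494. The deviations were taken from the mean of 3 libraries per genotype, so these values cannot settle whether the numbers mark pairs. With the replicate block NP1 stayed at -1.40 (limma adjusted p = 0.0716), WDA1 at -0.77 (0.118) and CER1 at -0.38 (0.351), and 646 rows rose and 749 fell. The low level of GPAT3, which failed the filter, limits what its values can show.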
